A study of Homo sapiens with 4 samples.

Results

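A set of 10 genes of the cadherin switch and of its regulators was followed through RNA-seq of prostate cancer cells with DDX52 knocked down. They are CDH1 (ENSG00000039068), EPCAM (ENSG00000119888), CDH2 (ENSG00000170558), VIM (ENSG00000026025), FN1 (ENSG00000115414), ZEB1 (ENSG00000148516), SNAI1 (ENSG00000124216), SNAI2 (ENSG00000019549), ESRP1 (ENSG00000104413) and ESRP2 (ENSG00000103067), taken by symbol from a list. All 10 were present, each with 1 Ensembl identifier, among the 60671 genes of the deposited tables. The cells were 22RV1, a line grown from a relapsed xenograft of a human prostate carcinoma, and PC3, a line from a bone metastasis of prostate cancer. Each line was infected with lentivirus carrying an shRNA against DDX52 (shDDX52), a DEAD-box RNA helicase, or a non-targeting control sequence (shCON), and infected cells were selected with puromycin. A single shRNA sequence was used against DDX52, so the effect of the sequence and that of DDX52 loss cannot be told apart. A single library was made per condition, 4 in all, so no value has a replicate error and no difference was tested. In bulk RNA such as this, fewer cells of a type and less RNA per cell cannot be told apart.

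The epithelial-to-mesenchymal transition is the programme by which epithelial cells loosen their junctions and take on a motile, fibroblast-like form. Its best known sign is the cadherin switch, in which E-cadherin (CDH1) gives way to N-cadherin (CDH2) while vimentin (VIM) and fibronectin (FN1) increase. The zinc finger factors ZEB1, SNAI1 (Snail) and SNAI2 (Slug) bind E-box motifs and repress CDH1 and other epithelial genes. The RNA-binding proteins ESRP1 and ESRP2 hold transcripts such as those of FGFR2 and CD44 in their epithelial splice forms. In prostate carcinoma, loss of E-cadherin and gain of N-cadherin are known features of invasive and castration-resistant disease.

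The upstream sequences of VIM and FN1 are shown because VIM had the largest change with shDDX52 among the 10 genes, while FN1, the other mesenchymal gene of the set with a promoter window and levels well above 1 TPM in every library, did not share it. They were read from RefSeq promoter windows on GRCh38.p14, 5′ to 3′ on the strand of the gene. The VIM window lies at chr10:17227991-17228240 on the plus strand and holds the 250 bases before the RefSeq start site. The FN1 window lies at chr2:215436173-215436318 on the minus strand and holds the 146 bases upstream of the outermost start in GENCODE 29. Capitals mark matches to TGACGTCA (the cAMP response element), CCAAT or TATAA on either strand.
VIM: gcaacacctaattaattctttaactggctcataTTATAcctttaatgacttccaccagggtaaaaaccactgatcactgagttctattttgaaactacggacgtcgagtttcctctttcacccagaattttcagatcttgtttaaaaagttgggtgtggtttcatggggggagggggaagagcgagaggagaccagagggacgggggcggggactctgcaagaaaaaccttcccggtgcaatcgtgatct
FN1: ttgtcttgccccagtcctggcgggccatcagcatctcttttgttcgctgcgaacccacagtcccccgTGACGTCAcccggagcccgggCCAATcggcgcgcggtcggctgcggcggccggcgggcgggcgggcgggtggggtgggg
The FN1 stretch holds TGACGTCA at positions −183 to −176 and CCAAT at −162 to −158, counted from the RefSeq start site. The rest of the 250 bases before that site, which is not printed, holds TATAA at −28 to −24. The VIM stretch holds TATAA on the opposite strand, at −217 to −213. Neither gene's 250 bases held CACCTG, the E-box bound by the Snail and ZEB factors, or the looser E-box CANNTG, on either strand. Among the 35116 windows of 250 bases in the table, which are longer than the printed FN1 stretch, CACCTG occurred in 17.5%, CANNTG in 61.8%, TGACGTCA in 1.65%, CCAAT in 32.0% and TATAA in 18.9%. CACCTG is a special case of CANNTG, so these matches overlap. A match is a string of letters and not a measured binding site. Promoter windows matched 4 of the 10 genes, namely VIM, FN1, CDH2 and ZEB1. CDH1, EPCAM, SNAI1, SNAI2, ESRP1 and ESRP2 had no match.

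The authors deposited TPM, transcripts scaled to a common library total and corrected for gene length, so levels of different genes can be compared within a library. TPM keeps no sequencing depth, so the reads behind each value are unknown. DDX52 was 24.6% of control in 22RV1 cells, from 4.88 to 1.2 TPM, and 22.5% of control in PC3 cells, from 9.2 to 2.07 TPM. Of 8 prostate luminal and androgen markers, all had at least 1 TPM in both 22RV1 libraries. KLK2 and KLK3 were listed at 0 in both PC3 libraries, where the epithelial keratins KRT8 and KRT18 were between 719.96 and 1492.26 TPM. The fibroblast markers summed to 21.3 and 12.1 TPM in 22RV1 shCON and shDDX52 cells, most of it LUM, and to 8.72 and 7.96 TPM in PC3 cells, most of it COL1A1. PDGFRA, a defining fibroblast marker, did not exceed 0.01 TPM in any library. The endothelial markers summed to 0.02 and 0.03 TPM in 22RV1 and to 5.68 and 3.11 TPM in PC3, and the leukocyte markers to 8.92 and 2.70 TPM in 22RV1 and to 45.7 and 37.3 TPM in PC3, mostly CD68. Nuclear rRNA genes held 1.21% and 0.0872% of the TPM in 22RV1 and 0.0923% and 3.13% in PC3, shCON before shDDX52 in each pair. The part of these differences in the values below was not tested.

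Both cell lines carried an epithelial transcript profile with mesenchymal transcripts beside it. CDH1, which encodes the main adhesion molecule of epithelial junctions and lies on chromosome 16 from 68737225 to 68835548, was 97.88 TPM in 22RV1 cells with shCON and 111.62 with shDDX52, and 60.05 and 75.06 TPM in PC3 cells. Its level was higher in both 22RV1 libraries than in both PC3 libraries, and in each line it was higher with shDDX52. EPCAM, an epithelial surface glycoprotein gene on chromosome 2 from 47345158 to 47387601, was 24.04 and 31.56 TPM in 22RV1 and 287.03 and 230.62 TPM in PC3, shCON first. Here the order was turned, with both PC3 libraries far above both 22RV1 libraries. All positions of genes are those of GENCODE 29 on GRCh38.

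CDH2, the N-cadherin gene on chromosome 18 from 27950966 to 28177446, was 0.32 TPM in 22RV1 cells with shCON and 1.06 with shDDX52, and 6.81 and 12.85 TPM in PC3 cells. It was the lower of the 2 cadherins in every library. VIM, which encodes the intermediate filament protein of mesenchymal cells and lies on chromosome 10 from 17228259 to 17237593, was 8.08 and 5.57 TPM in 22RV1 and 12.61 and 66.68 TPM in PC3, shCON first. A single library, PC3 shDDX52, stood apart from the other 3. FN1, the gene of the matrix glycoprotein fibronectin on chromosome 2 from 215360440 to 215436172, was 52.43 and 28.69 TPM in 22RV1 and 154.43 and 115.68 TPM in PC3. Both PC3 libraries were above both 22RV1 libraries, and in each line FN1 was lower with shDDX52.

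Of the transcription factors, ZEB1 was at or near 0 throughout. ZEB1, on chromosome 10 from 31318495 to 31529814, was listed at 0 in both 22RV1 libraries, at 0.01 TPM in PC3 shCON and at 0.07 TPM in PC3 shDDX52. Its antisense neighbour ZEB1-AS1, which overlaps its start, was between 1.36 and 2.30 TPM in all 4 libraries. SNAI1, on chromosome 20 from 49982999 to 49988886, was 0.78 and 0.54 TPM in 22RV1 and 3.89 and 2.93 TPM in PC3, shCON first. SNAI2, on chromosome 8 from 48917604 to 48921740, was 12.62 and 7.12 TPM in 22RV1 and 4.22 and 4.84 TPM in PC3. The Snail and Slug transcripts were therefore ordered in opposite ways between the lines, with SNAI1 higher in PC3 and SNAI2 higher in 22RV1.

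Both splicing regulators were present in every library. ESRP1, on chromosome 8 from 94641074 to 94707466, was 29.14 and 20.51 TPM in 22RV1 and 49.34 and 40.05 TPM in PC3, shCON first. ESRP2, on chromosome 16 from 68229111 to 68238102, was 24.85 and 25.89 TPM in 22RV1 and 18.55 and 18.22 TPM in PC3. On the log2(TPM + 1) scale, ESRP2 had the narrowest range of the members that reached 1 TPM. The ratio of ESRP1 to ESRP2 was 1.17 in 22RV1 cells with shCON and 0.792 with shDDX52, and 2.66 and 2.20 in PC3 cells.

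The order of the levels within a library, on the TPM scale, differed between the lines. In both 22RV1 libraries CDH1 was the highest of the members, and CDH2 was among the lowest with SNAI1 and ZEB1. In both PC3 libraries EPCAM was the highest, followed by FN1 and then CDH1. In PC3 shCON cells VIM was below both ESRP genes, and in PC3 shDDX52 cells it was above them and next to CDH1, at 66.68 against 75.06 TPM. Without replicates, it is not known which neighbours in these orders differ beyond their spread.

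**Figure D1:**
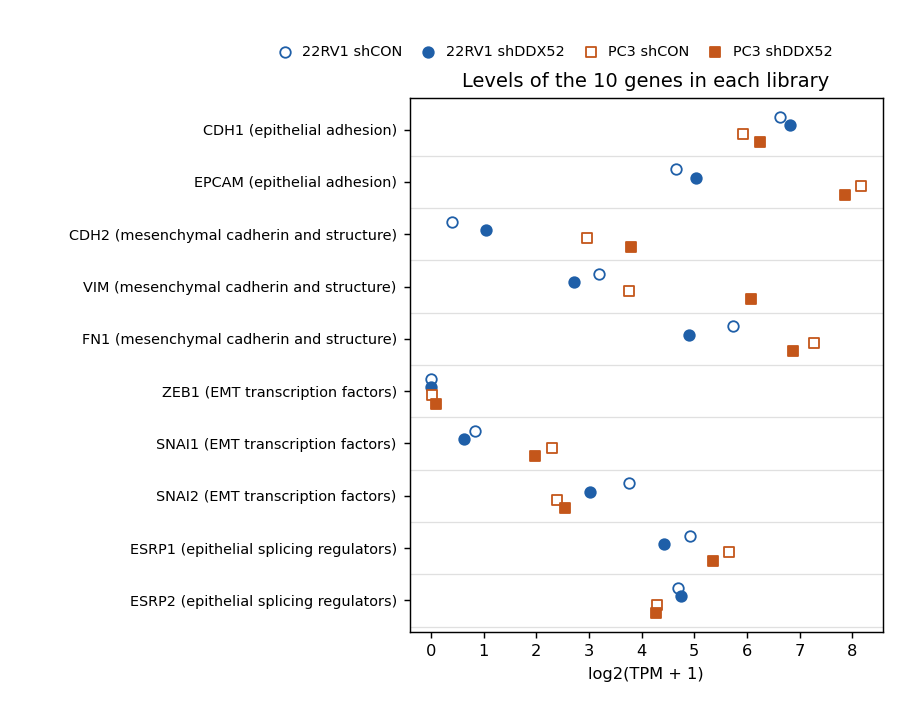
Level of each of the 10 genes, as log2(TPM + 1) on the horizontal axis, with 1 point per library. Circles are 22RV1 and squares PC3, open for shCON and filled for shDDX52. The PC3 shDDX52 point of VIM, at 66.68 TPM, lies far from the other 3, and all 4 points of ZEB1 lie at or near 0.

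To ask how DDX52 knockdown affected these genes, the log2 ratio log2((TPM shDDX52 + 1) / (TPM shCON + 1)) was computed for genes that reached 1 TPM in a library of the line, and a gene was counted as changed at 2-fold or more on this scale. Because 1 is added to each value, ratios of low genes come out smaller than those of their TPM. In 22RV1 cells, 8 of the 10 genes passed the filter, ZEB1 and SNAI1 did not, and 0 of the 8 were changed in either direction. Of all 14438 genes tested in 22RV1, 2.24% were higher and 2.86% lower. In PC3 cells, 9 of the 10 passed, all but ZEB1, and 1 was higher and 0 lower, against 2.86% higher and 3.44% lower of 14262 genes. The median log2 ratio of the members that passed was −0.20 in 22RV1 and −0.025 in PC3, and that of all genes tested was −0.076 and −0.036.

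VIM was the member that rose, in PC3 cells. Its level was 5.29 times that of the control, with a log2 ratio of 2.31, and 85 of the 14262 genes tested, or 0.596%, rose at least as far. In 22RV1 cells VIM was 68.9% of control, with a log2 ratio of −0.47. VIM-AS1, an antisense gene that overlaps the first 1727 bases of VIM, went from 0.60 to 3.75 TPM in PC3 and from 1.27 to 0.83 TPM in 22RV1, the directions of VIM. Whether reads were counted by strand is not given in the sources used here, and without strand the reads of VIM and VIM-AS1 cannot be told apart over this stretch. The fibroblast marker sum was 8.72 and 7.96 TPM in the PC3 libraries, most of it COL1A1 at 8.65 and 7.84 TPM. PDGFRA and DCN were listed at 0 in both. Nuclear rRNA genes went from 0.0923% to 3.13% of the TPM between the same libraries, and rescaling to nuclear protein-coding genes, which leaves rRNA out, gave VIM a log2 ratio of 2.45. The part of stromal cells or of rRNA content in the VIM values was not tested.

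CDH2 had the largest positive log2 ratio after VIM in PC3, 0.83, at 1.89 times the control, and 4.21% of all genes tested were at least as far up. In 22RV1 its log2 ratio was 0.64, with 4.72% of genes at least as far up. The TPM ratio there was 3.31, from a control value of 0.32 TPM, and with a pseudocount of 0.1 the log2 ratio was 1.47, which is past 2-fold. CDH1, the other side of the cadherin pair, was 114% of control in 22RV1 and 125% of control in PC3. The log2 ratios of CDH1 were 0.19 and 0.32. Within each line, E-cadherin transcripts were thus not lower with shDDX52, where N-cadherin transcripts were higher.

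FN1 was 54.7% of control in 22RV1, with a log2 ratio of −0.85, and 74.9% of control in PC3, with a log2 ratio of −0.41. In 22RV1, 3.91% of all genes tested were at least as far down as FN1. The fibroblast markers LUM and DCN went from 16.54 to 6.91 and from 1.87 to 0.28 TPM between the same libraries. COL1A1 of the same marker list went the other way, from 2.81 to 4.77 TPM. COL3A1 went from 0.11 to 0.15 TPM, and PDGFRA did not exceed 0.01 TPM. The part of these markers in the FN1 values was not tested. SNAI2 was 56.4% of control in 22RV1 and 115% in PC3, with log2 ratios of −0.75 and 0.16. ESRP1 was 70.4% and 81.2% of control, with log2 ratios of −0.49 and −0.29. EPCAM was 131% of control in 22RV1 and 80.3% in PC3, with log2 ratios of 0.38 and −0.31. SNAI1 was 75.3% of control in PC3 and under 1 TPM in both 22RV1 libraries. ESRP2 had the log2 ratios nearest to 0, at 0.057 in 22RV1 and −0.025 in PC3. Its sign in PC3 turned under other scalings, to 0.099 after rescaling to nuclear protein-coding genes, and none of these members reached 2-fold.

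**Figure D2:**
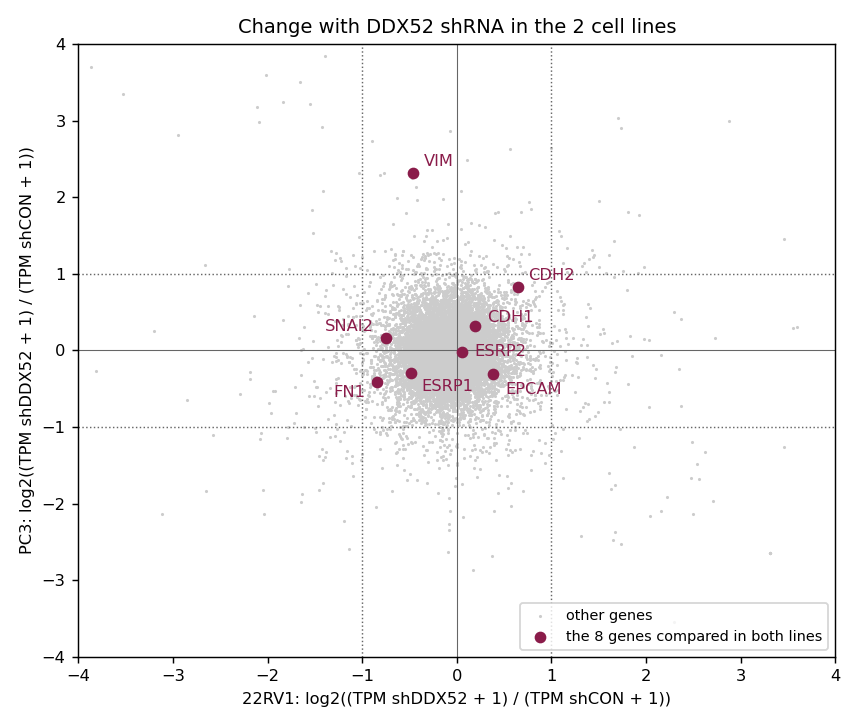
Log2 ratio with shDDX52 in 22RV1 (horizontal) against PC3 (vertical), for the 12175 genes with at least 1 TPM in a library of each line. Purple points are the 8 members that passed in both lines, dotted lines mark 2-fold, and 38 genes lie outside the axes. VIM, at −0.47 and 2.31, is the only member beyond a dotted line.

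Ratios of members within a library do not depend on the library total. CDH1 exceeded CDH2 by 306 times in 22RV1 shCON and by 105 times in 22RV1 shDDX52, where CDH2 was low. In PC3 cells CDH1 exceeded CDH2 by 8.82 times with shCON and by 5.84 times with shDDX52. CDH2 made up 0.326% of the 2 cadherins in 22RV1 cells with shCON and 0.941% with shDDX52, and 10.2% and 14.6% in PC3 cells. The share of N-cadherin was thus higher with shDDX52 in each line, and CDH1 remained the main one of the pair in all 4 libraries. EPCAM exceeded VIM by 2.98 times in 22RV1 shCON and by 5.67 times in 22RV1 shDDX52. In PC3 the same ratio was 22.8 with shCON and 3.46 with shDDX52, so it moved the other way.

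The 19 other cadherin genes were read beside this pair. CDH3, which encodes P-cadherin of basal epithelium, was 45.9 and 62.16 TPM in 22RV1 and 92.76 and 100.24 TPM in PC3, shCON first. It was above CDH1 in both PC3 libraries and below it in both 22RV1 libraries. Together CDH1 and CDH3 held between 84.1% and 86.8% of the summed TPM of the 21 cadherins in each library. CDH24, a cadherin of the atypical class, was 17.92 and 24.8 TPM in 22RV1 and 3.37 and 3.74 TPM in PC3. CDH11, a cadherin of mesenchymal cells, was listed at 0 in both 22RV1 libraries and was 3.2 and 3.97 TPM in PC3. With shDDX52, 0 of 7 other cadherins that passed the filter were changed 2-fold in either line on the log2 scale used. On TPM alone, CDH8 in 22RV1 fell past 2-fold, from 2.09 to 0.63 TPM, and so did CDH12, from 2.53 to 1.03 TPM. CDH5 in PC3 rose past 2-fold on TPM alone, from 0.61 to 1.98 TPM.

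**Figure D3:**
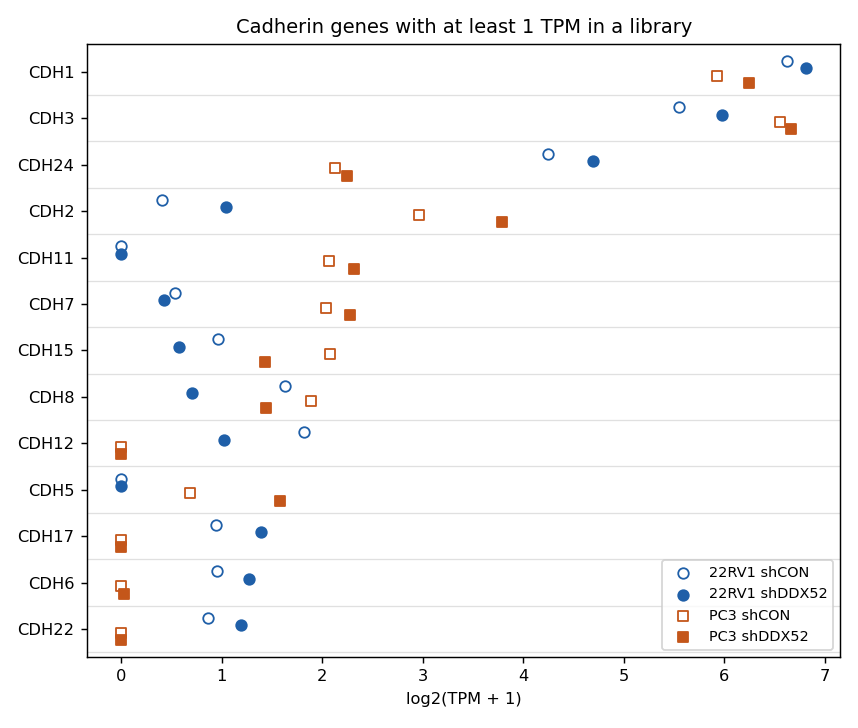
Level of the 13 cadherin genes that reached 1 TPM in a library, as log2(TPM + 1), with symbols as in the plot of the 10 genes. CDH1 and CDH3 lie above the rest in every library, and CDH2 lies higher in the PC3 libraries (6.81 and 12.85 TPM) than in those of 22RV1 (0.32 and 1.06 TPM).

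EPCAM, CDH2, FN1 and SNAI1 differed between the cell lines by over 2-fold with either shRNA. The log2 ratio of PC3 to 22RV1 was set between shCON libraries and again between shDDX52 libraries. The lines were deposited in separate tables, each in TPM, and with 1 library per condition the line and the library cannot be told apart. These ratios use the same 4 libraries as the knockdown ratios and are not independent of them. Between shCON libraries, 9 members passed the filter, 4 were at least 2-fold higher in PC3 and 1 was lower. Of all 15727 genes tested, 19.9% were higher and 21.3% lower. Between shDDX52 libraries, 5 of 9 were higher and 0 lower, against 21.0% and 20.2% of 15598 genes.

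EPCAM had the largest difference between shCON libraries, 11.9 times higher in PC3 with a log2 ratio of 3.52, and 2.41% of all genes tested were at least as far up. CDH2 followed with a log2 ratio of 2.56, FN1 with 1.54 and SNAI1 with 1.46. SNAI2 was 33.4% of the 22RV1 level, with a log2 ratio of −1.38. Epithelial and mesenchymal genes were thus both among those higher in PC3. CDH1 was 61.4% of the 22RV1 level, ESRP2 was 74.6% and ESRP1 was 169%, none of them past 2-fold. Between shDDX52 libraries VIM joined the higher genes, with a log2 ratio of 3.36 against 0.58 between shCON libraries. SNAI2 had a log2 ratio of −0.48 there, under 2-fold. The other members kept their side of 2-fold in both comparisons.

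**Figure D4:**
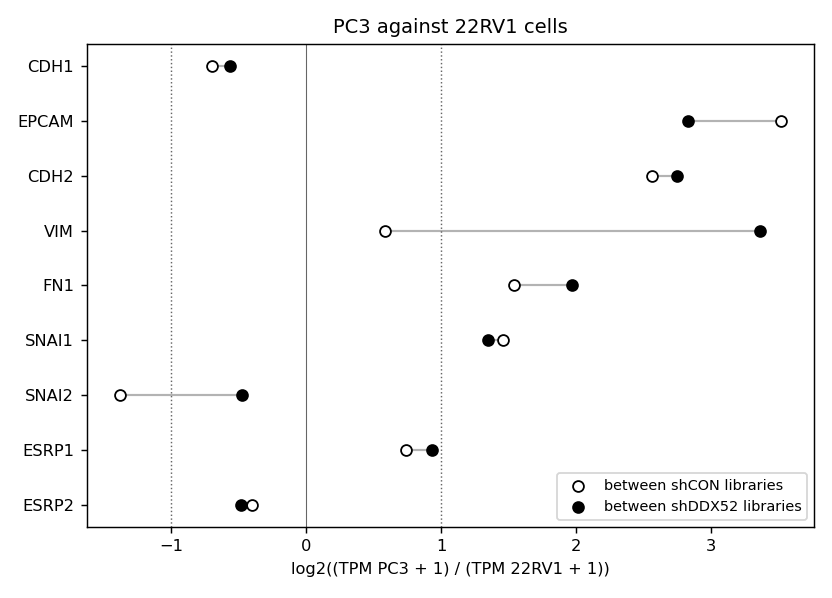
Log2 ratio of PC3 to 22RV1 for the 9 members with at least 1 TPM, between shCON libraries (open) and between shDDX52 libraries (filled), with 2-fold marked by dotted lines. VIM has the longest distance between its points, from 0.58 to 3.36.

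To see whether other genes of the programme moved with VIM, 9 lists of 167 further epithelial and mesenchymal genes were read the same way. In 22RV1, 109 of them passed the filter, 3 were higher and 1 lower with shDDX52, which is 2.75% and 0.917% against 2.24% and 2.86% of all genes. In PC3, 129 passed, 9 were higher and 4 lower, which is 6.98% and 3.10% against 2.86% and 3.44% of all genes. The median log2 ratio of these genes was 0.087 in 22RV1 and 0.18 in PC3. The lists were chosen with earlier results of these data known, so shares within them, here and below, are a description. Epithelial and mesenchymal lists are pooled in these shares, which therefore give no direction of the programme. In what follows, the gene furthest up or down in a list is that among genes with at least 5 TPM in one of both libraries.

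In PC3, the matrix and invasion list held 4 of the 9 genes that rose, with 0 of its 21 tested genes lower and a median of 0.19. Of these, THBS1 (thrombospondin) rose from 185.04 to 473.33 TPM, AXL (a receptor tyrosine kinase of mesenchymal carcinoma cells) from 32.62 to 79.29 TPM and NT5E (the surface enzyme CD73) from 7.42 to 17.26 TPM. The gene furthest down in this list was MMP9, from 6.92 to 4.12 TPM, which is under 2-fold on the log2 scale used. Below the limit of 5 TPM, the matrix gene SPARC fell further in PC3, with a log2 ratio of −0.83. Its TPM ratio was 0.143, so SPARC passed 2-fold on TPM alone. In 22RV1, 0 of 13 tested genes of this list were changed. ITGB1, the fibronectin-binding integrin subunit, came closest there, from 26.14 to 12.61 TPM with a log2 ratio of −0.996 that passed 2-fold, at −1.05, with a pseudocount of 0.1, and L1CAM was the furthest up, from 3.26 to 5.81 TPM.

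The transcription factor lists held changes in PC3 as well. Of the epithelial factors, 3 of 13 fell and 0 rose, with a median of −0.19. SPDEF, an ETS factor of luminal epithelium, fell from 99.55 to 22.43 TPM, a log2 ratio of −2.10. ELF3 fell from 73.98 to 35.37 TPM and KLF5 from 17.87 to 8.19 TPM. GRHL2, a factor that maintains epithelial genes, was 12.9 and 15.42 TPM, shCON first. Of the other factors linked to the transition, 2 of 11 rose, ETS1 from 17.03 to 39.3 TPM and TWIST1 from 0.59 to 2.54 TPM, and 0 fell. FOXQ1 was the furthest down, from 10.22 to 6.35 TPM. ZEB2, TWIST2, PRRX1 and FOXC2 did not exceed 0.21 TPM in any library. In 22RV1, GATA3 was the only gene of both lists changed on the log2 scale used, from 1.2 to 3.57 TPM. KLF4, from 2.96 to 1.35 TPM, and OVOL1, from 1.9 to 3.82 TPM, passed 2-fold there on TPM alone.

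Of the TGF-β and BMP list, 1 of 26 genes rose in PC3 and 1 fell. TGFBI, a matrix protein induced by TGF-β, rose from 4.67 to 14.78 TPM, and ID1, a target of BMP signals, fell from 401.61 to 136.21 TPM with a log2 ratio of −1.55. In 22RV1, 0 of 20 were changed, with SMAD7 furthest up, from 8.26 to 14.84 TPM, and SKI furthest down, from 28.63 to 23.18 TPM. FST, a secreted activin antagonist, went from 0.13 to 1.00 TPM there, with a log2 ratio of 0.82 that passed 2-fold, at 2.26, with a pseudocount of 0.1. Among splicing regulators and genes spliced by the ESRP proteins, QKI rose in PC3 from 12.08 to 31.85 TPM and MBNL2 from 1.22 to 4.78 TPM. CD44 fell in 22RV1 from 17.06 to 7.01 TPM, a log2 ratio of −1.17, and was 571.07 and 664.01 TPM in PC3. These are values per gene and do not show splice forms.

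In the tight junction, desmosome and adherens junction lists, a pair of claudins in 22RV1 were the only genes changed 2-fold with shDDX52 on the log2 scale used. On TPM alone, OCLN in 22RV1, from 1.99 to 4.04 TPM, and DSC3 in PC3, from 1.13 to 2.72 TPM, also passed 2-fold. Of the tight junction list, 2 of 16 rose in 22RV1, CLDN4 from 46.39 to 106.28 TPM and CLDN3 from 34.1 to 71.97 TPM, and 0 of 17 were changed in PC3. In PC3, LSR was the furthest up, from 96.61 to 138.5 TPM, and TJP3 the furthest down, from 37.0 to 22.0 TPM. Of the desmosome genes, 0 of 8 in 22RV1 and 0 of 10 in PC3 were changed. DSP (desmoplakin) was the furthest up in PC3, from 19.27 to 34.85 TPM. Of the catenins and other adherens junction genes, 0 of 10 in 22RV1 and 0 of 12 in PC3 were changed. CTNNB1 (β-catenin), the partner of both cadherins, was 106.46 and 81.92 TPM in 22RV1 and 91.71 and 93.24 TPM in PC3. In 22RV1 the adherens junction gene furthest up was NECTIN2, from 23.39 to 31.9 TPM. THBS1, AXL, NT5E, ELF3, KLF5, TWIST1, MBNL2, CLDN3, GATA3 and the genes given only by their levels in the last 3 paragraphs were picked after their values were seen. SPARC, CDH5, CDH8 and CDH12 were picked in the same way.

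**Figure D5:**
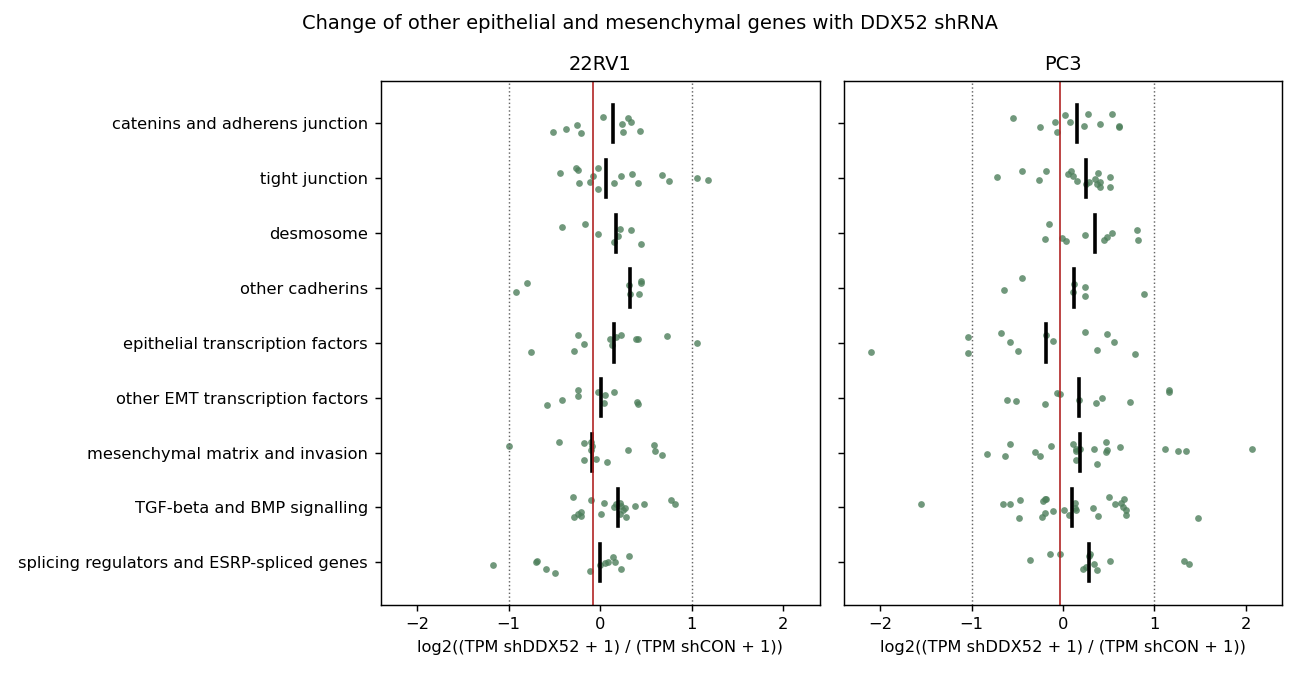
Log2 ratio with shDDX52 of each tested gene in the 9 lists (green points), in 22RV1 (left) and PC3 (right). Black bars are list medians, the red line is the median of all genes tested (−0.076 and −0.036), and dotted lines mark 2-fold. In PC3, 4 matrix and invasion genes lie beyond the right dotted line and 3 epithelial transcription factors beyond the left one.

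Between shCON libraries, 61 of 135 tested list genes were higher in PC3 and 18 lower, which is 45.2% and 13.3% against 19.9% and 21.3% of all genes. The matrix and invasion list was the most one-sided of the 9, with 17 of 21 higher and 0 lower and a median log2 ratio of 2.34. PLAU (urokinase) was 0.20 TPM in 22RV1 and 745.19 TPM in PC3, and THBS1 was 0.25 and 185.04 TPM. Desmosome genes were also higher in PC3, 6 of 10 with 0 lower, led by PKP1 (plakophilin) at 1.03 and 58.81 TPM. The tight junction gene CLDN1 was 0.48 TPM in 22RV1 and 30.69 TPM in PC3. CTNNA1 (α-catenin), which ties the cadherin complex to actin, stood at 185.11 TPM in 22RV1 against 5.93 TPM in PC3, with a log2 ratio of −4.75. FOXA1, a pioneer factor of luminal epithelium, was 100.73 and 24.93 TPM. TWIST1 was 8.02 and 0.59 TPM, and HMGA2 was 0.84 and 55.08 TPM. ID2 was 20.55 and 0.13 TPM, and INHBA, which encodes an activin subunit, was 0.04 and 83.56 TPM. FGFR3 was 16.91 and 0.97 TPM, and CD44 was 17.06 and 571.07 TPM.

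Genes with the most similar course over the 4 libraries were sought among 13477 named genes with a mean of at least 1 TPM, by the root mean square difference of centred log2(TPM + 1) values. The closest to CDH1 were MIER3 at 0.018, SPRYD3 at 0.023 and LMNB2 at 0.025. MIER3 was 1.52 and 1.86 TPM in 22RV1 and 0.52 and 0.96 TPM in PC3, shCON first. The 1 added to each value narrows the course of genes this low. The closest to EPCAM were PLAC8 at 0.053, SIX2 at 0.0702 and MAL2 at 0.078. MAL2 was 20.01 and 25.93 TPM in 22RV1 and 215.3 and 171.47 TPM in PC3, shCON first. SIX2 was near the floor in 22RV1, at 0.08 and 0.27 TPM, and was 10.7 and 9.22 TPM in PC3. Those closest to VIM were further off, among them GJA5 at 0.23 and SUMO2P12 at 0.30. GJA5 was 0.02 TPM and listed at 0 in 22RV1 and was 1.29 and 10.03 TPM in PC3, so it too was highest in PC3 shDDX52. With 4 libraries such likeness is a description of these values.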

How the data were processed

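RNA was extracted with Trizol and libraries were made with an Illumina TruSeq RNA kit for 22RV1 and PC3 cells, with control or DDX52 shRNA, giving 4 libraries. Mapping was done by the authors through a web platform, and the deposited values are TPM of 60671 Ensembl genes. The submitters' processing notes name CASAVA, HISAT2 and hg19 without a role, and the quantification program, annotation and filters are not given in the sources used here. Columns were assigned to libraries by cell line and shRNA name. Symbols were found for 42020 identifiers, and 58453 are in GENCODE 29 on GRCh38, which gave positions and gene types. Positions are not those of the build named by the submitters.

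Log2 ratios used a pseudocount of 1 TPM and a filter of 1 TPM in the higher of both libraries, and 2-fold was the limit for a change. No p-value was computed, since no condition has a replicate. The ratio is the log2 of (TPM + 1) in one library over that in the other. The calculation was tested on simulated data without noise, in well expressed genes changed by a set factor. That check does not cover values near 1 TPM. Members and gene lists were chosen with earlier results of these data known. Genes were named by a rule: the 10 members and DDX52, the genes furthest up and down in each list in each knockdown (1 each way) and between shCON libraries (2 each way) with at least 5 TPM, and the 3 genes closest in course to CDH1, EPCAM and VIM. The text gives a part of these, and some are not reported here. Ratios were repeated with a pseudocount of 0.1, without a filter or with one of 5 TPM, without mitochondrial and the 20 highest genes, on nuclear protein-coding genes, and centred on the median of all genes. Python 3.11.15 was used with matplotlib 3.10.9, pandas 2.3.3 and numpy 2.4.6.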

Additional observations from a re-analysis of the deposited data

Results flagged for a closer look

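VIM was the member whose change with shDDX52 pointed in opposite directions in the 2 cell lines and differed by at least 2-fold between them. Its log2 ratio was −0.47 in 22RV1 and 2.31 in PC3, so the PC3 ratio was higher by 2.78. With 1 library per condition, this difference was not tested. The antisense gene VIM-AS1 had log2 ratios of −0.31 and 1.57, and its part in the VIM values was not tested.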

How the results depend on the processing

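The 10 genes gave 35 log2 ratios over the 4 comparisons, recomputed under 205 alternatives, of which 201 kept their sign and their side of 2-fold. Dropping the filter or setting it at 5 TPM only selects genes and cannot change the ratio of a gene. Those alternatives are counted among the 201, although their outcome was fixed in advance. With a pseudocount of 0.1, the log2 ratio of CDH2 in 22RV1 passed 2-fold, at 1.47, which made 1 member at least 2-fold higher there instead of 0. The low control value of 0.32 TPM sets how much the pseudocount matters. The other 3 were the log2 ratio of ESRP2 in PC3, which was −0.025 and turned to values up to 0.099 under both rescalings and centring. Of 1248 recomputed ratios of other named genes, 1231 kept their sign and side of 2-fold, again with the changed filters counted. With the pseudocount of 0.1, ITGB1 at −1.05 and FST at 2.26 passed 2-fold in 22RV1, so the counts of 0 changed genes in their lists do not hold with that pseudocount. The list counts themselves were not recomputed. CDH8 and CDH12 in 22RV1, and CDH5, DSC3 and SPARC in PC3, were past 2-fold on TPM alone. The counts of their lists therefore also depend on the pseudocount, and whether the remaining counts hold was not tested. The 8 counts of members otherwise stayed the same or within 1.5 times. VIM in PC3 ranged from 2.31 to 2.45, and FN1 in 22RV1 from −0.87 to −0.77. Recomputing TPM over nuclear protein-coding genes shifted the median of all genes in PC3 by 0.12, and relative to the median of all genes as deposited VIM in PC3 was 2.35. Of 216 recomputed list medians, 196 kept their sign and side of 2-fold, and no list median past 2-fold changed sign. The median of the other cadherins, PC3 to 22RV1 between shCON libraries, was 0.999, just under 2-fold, and did change sign. It was −0.38 when mitochondrial transcripts and the 20 highest genes were removed, where 10 genes passed the filter and not 7. No paired analysis was possible because 1 library stands for each condition. Depth is unknown in TPM, which limits values near or under 1 TPM, as for SNAI1 in 22RV1.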
